A study of Mus musculus with 6 samples.

Results

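The genes described here are the collagen chains and a set of genes made by the fibroblasts of the meninges, the membranes around the brain, as measured in mouse ventral midbrain. They were chosen by name. A gene belonged if its symbol had the form of a collagen chain, Col, a number, a and a number, or if it was Dcn, Lum, Ogn, Fmod, Islr, Bgn, Igf2, Slc6a13, Aldh1a2, Ptgds, Crabp2 or Cldn1. This gave 56 of the 22180 genes with a probe set of their own, 44 collagens and 12 meningeal genes. Of these, 5 genes had more than 1 such probe set, and each gene was represented by the one with the highest mean. Ventral midbrain was taken at 2 months of age from male Bach1 knockout (Bach1 KO) and wild-type mice, and each genotype has 3 arrays. BACH1 is a transcriptional repressor that senses heme. The labels do not describe the knockout allele or the strain, and they do not say whether each array came from 1 animal, so the p-values cover the spread among these 6 arrays, which may be technical.

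Collagens are extracellular proteins built from 3 chains wound into a triple helix. Some form fibrils, some form the sheets of basement membranes under vessels and under the surface of the brain, some decorate fibrils and some span the cell membrane. Brain tissue itself holds little fibrillar collagen, while the meninges and the sheaths of larger vessels contain fibroblasts that make fibrillar collagens and small proteoglycans that bind them. Meningeal fibroblasts and the arachnoid barrier cells beside them are also known for transporters, for retinoic acid synthesis and for prostaglandin D2 synthase.

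All values are log2 expression levels as the authors deposited them. The array medians ran from 5.58 on wild-type replicate 2 to 5.69 on Bach1 KO replicate 2. The level of the Bach1 probe set was 7.66 ± 0.058 on the Bach1 KO arrays and 7.54 ± 0.068 on the wild-type arrays (SD, n = 3), so it was not lower under the Bach1 KO label, and whether it reads the deleted part is not known. Hmox1, the heme oxygenase gene that BACH1 represses, was at 8.38 ± 0.15 on the arrays labelled Bach1 KO and at 6.43 ± 0.098 on the wild-type arrays (SD, n = 3; limma, adjusted p = 0.0181). All directions given here follow the labels. The 12 markers of dopaminergic midbrain all had means above 5.07, the 40th percentile over the probe sets, among them Th, with array levels from 11.02 to 11.49, and the dopamine transporter gene Slc6a3, from 11.69 to 12.17. All 12 meningeal genes and 39 of the 44 collagens were above it too. The 5 collagens below it were Col10a1, Col14a1, Col28a1, Col4a4 and Col6a5.

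Promoter windows, 250 bases before to 50 bases after the annotated start, were available from RefSeq (GRCm38.p6) for 44 of the 56 genes. The 6 windows printed here belong to the 3 meningeal genes that varied most between arrays, to a fibril chain that followed them, and to the pair of collagen IV chains that share a start region. Capitals mark the letters of a TATA box, TATAAA, or of a CCAAT box, CCAAT, on either strand.
Fmod (chr1:134037004-134037303, plus strand): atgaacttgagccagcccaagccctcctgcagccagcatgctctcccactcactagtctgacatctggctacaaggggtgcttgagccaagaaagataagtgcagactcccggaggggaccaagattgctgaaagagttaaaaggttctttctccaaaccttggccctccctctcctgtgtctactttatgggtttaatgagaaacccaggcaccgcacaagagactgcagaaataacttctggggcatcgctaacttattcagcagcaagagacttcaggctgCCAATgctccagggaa
Ogn (chr13:49607765-49608064, plus strand): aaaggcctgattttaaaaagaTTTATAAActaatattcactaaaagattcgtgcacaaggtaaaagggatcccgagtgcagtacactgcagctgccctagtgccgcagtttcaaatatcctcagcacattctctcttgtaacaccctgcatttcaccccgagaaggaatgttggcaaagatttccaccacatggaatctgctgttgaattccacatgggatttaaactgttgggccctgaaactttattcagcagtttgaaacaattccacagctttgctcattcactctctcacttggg
Aldh1a2 (chr9:71215539-71215838, plus strand): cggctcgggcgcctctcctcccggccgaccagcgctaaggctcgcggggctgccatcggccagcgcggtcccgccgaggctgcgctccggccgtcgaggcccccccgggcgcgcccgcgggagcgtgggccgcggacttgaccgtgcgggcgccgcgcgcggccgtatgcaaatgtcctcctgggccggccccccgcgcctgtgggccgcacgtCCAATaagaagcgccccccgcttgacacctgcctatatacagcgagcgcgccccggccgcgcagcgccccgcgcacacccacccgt
Col1a2 (chr6:4505368-4505667, plus strand): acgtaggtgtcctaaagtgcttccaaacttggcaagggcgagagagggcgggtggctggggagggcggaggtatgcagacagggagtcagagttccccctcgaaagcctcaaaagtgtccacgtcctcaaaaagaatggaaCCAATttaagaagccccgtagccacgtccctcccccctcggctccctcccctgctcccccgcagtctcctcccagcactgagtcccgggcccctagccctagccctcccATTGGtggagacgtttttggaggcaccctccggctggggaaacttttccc
Col4a1 (chr8:11312777-11313076, minus strand): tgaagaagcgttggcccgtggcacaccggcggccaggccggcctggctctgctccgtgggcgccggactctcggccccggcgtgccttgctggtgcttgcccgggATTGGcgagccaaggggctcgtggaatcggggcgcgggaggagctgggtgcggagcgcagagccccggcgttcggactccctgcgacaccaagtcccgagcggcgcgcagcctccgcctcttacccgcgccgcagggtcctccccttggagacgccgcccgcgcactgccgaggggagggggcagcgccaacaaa
Col4a2 (chr8:11312555-11312854, plus strand): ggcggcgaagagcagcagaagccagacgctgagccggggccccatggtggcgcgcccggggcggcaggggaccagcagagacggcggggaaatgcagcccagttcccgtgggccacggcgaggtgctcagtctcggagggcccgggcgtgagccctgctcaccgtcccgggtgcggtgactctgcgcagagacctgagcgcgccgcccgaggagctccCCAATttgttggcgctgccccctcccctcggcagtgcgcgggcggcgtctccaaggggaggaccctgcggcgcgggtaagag
The letters TATAAA occurred in the window of 1 of the 9 meningeal genes with a window, Ogn, where the forward and reverse matches overlap. They occurred in 5 of 35 collagens with a window, and in 15.7% of all genes with a window. CCAAT occurred in 4 of the 9 meningeal genes, in 13 of the 35 collagens and in 41.1% of all genes. In Aldh1a2 it began 36 bases and in Col4a2 32 bases before the start. TGACTCA, the core of the site shared by AP-1 and BACH factors, occurred in the windows of Col6a1 and Ptgds and in 5.95% of all genes, and the longer TGACTCAGC in 0 of the 44 genes and in 0.503% of all genes. The starts of Col4a1 and Col4a2 lie 21 bases apart on opposite strands, so their windows overlap by 78 bases. Col4a5 and Col4a6 form another such pair on the X chromosome, with starts 1343 bases apart. These matches describe the letters in a window and not bound sites.

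Most meningeal genes differed more between arrays of the same genotype than between the genotype means, and most of them shared 1 order of the arrays. Wild-type replicates 2 and 3 were the highest arrays, Bach1 KO replicates 1 and 3 were intermediate, and Bach1 KO replicate 2 and wild-type replicate 1 were the lowest. The lowest arrays were this pair for 8 of the 12 genes (66.7%), against 7.39% of all genes. The highest arrays were wild-type replicates 2 and 3 for 10 of 12 (83.3%), against 10.6% of all genes. This pair and this order were noticed in the data and are given as a description. In bulk tissue, fewer cells of a type and less RNA per cell cannot be told apart.

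Among the small proteoglycans and related leucine-rich repeat proteins of the matrix, Fmod had the widest spread. Fmod encodes fibromodulin, which binds collagen fibrils. Its level was 8.68, 7.39 and 8.21 on Bach1 KO replicates 1, 2 and 3, and 7.44, 9.57 and 9.41 on wild-type replicates 1, 2 and 3. The groups overlapped, and the highest and lowest arrays differed by 2.18 on the log2 scale, or 4.53-fold. A further Fmod probe set gave the same 2 lowest arrays, at 6.06 on Bach1 KO replicate 2 and 6.17 on wild-type replicate 1, against 7.85 and 7.72 on wild-type replicates 2 and 3. Ogn, which encodes osteoglycin, a proteoglycan of the same family, was at 8.12, 6.97 and 7.63 on the Bach1 KO arrays and at 6.86, 8.86 and 9.01 on the wild-type arrays, in the order of replicates. Its lowest and highest array were both wild type. Islr, a secreted leucine-rich repeat protein gene expressed by fibroblasts, was at 8.995, 7.79 and 8.48 on the Bach1 KO arrays and at 8.04, 9.53 and 9.61 on the wild-type arrays. For Lum, which encodes lumican, the Bach1 KO levels were 5.64, 5.01 and 6.18 and the wild-type levels 5.24, 6.14 and 6.13, so Bach1 KO replicate 3 was the highest array there. Bgn, the biglycan gene, spread less, with 10.65, 9.95 and 10.43 on the Bach1 KO arrays and 10.12, 10.84 and 10.70 on the wild-type arrays. A second Bgn probe set did not repeat this order: it was highest on Bach1 KO replicate 2 (7.50) and lowest on wild-type replicate 1 (7.01). Dcn encodes decorin, which regulates fibril diameter, and its only low array was wild-type replicate 1. The Dcn levels were 10.02, 10.03 and 9.92 on the Bach1 KO arrays and 9.33, 10.16 and 10.09 on the wild-type arrays, and Bach1 KO replicate 2 was not low for this gene.

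Among the transporter, retinoid, growth factor, junction and prostaglandin genes, Slc6a13, Aldh1a2 and Igf2 had the same lowest pair of arrays, and Crabp2, Ptgds and Cldn1 did not. Slc6a13, a GABA and taurine transporter of the meninges, was at 8.33, 7.44 and 7.96 on Bach1 KO replicates 1, 2 and 3 and at 7.64, 9.12 and 9.17 on wild-type replicates 1, 2 and 3. Aldh1a2, which makes retinoic acid, had the largest range of the group. It was at 7.03, 5.72 and 6.57 on the Bach1 KO arrays and at 6.12, 7.82 and 7.67 on the wild-type arrays, a 4.30-fold span. Crabp2, a carrier of retinoic acid inside cells, was at 6.76, 6.31 and 6.31 against 6.14, 7.03 and 6.87. The imprinted growth factor gene Igf2, made by meninges and choroid plexus, was at 8.12, 7.57 and 7.89 against 7.31, 8.59 and 8.58. For both genes wild-type replicate 1 was the lowest of all arrays and the groups overlapped. It was the lowest array for 4 of the 12 meningeal genes, against 14.2% of all genes. Ptgds, the prostaglandin D2 synthase gene, which oligodendrocytes express as well, was at 13.09, 12.58 and 12.88 against 12.98, 13.39 and 13.31, and its lowest arrays were Bach1 KO replicates 2 and 3. Cldn1, a tight junction gene, was nearly flat, at 7.30, 7.19 and 7.15 against 7.35, 7.19 and 7.16.

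**Figure D1:**
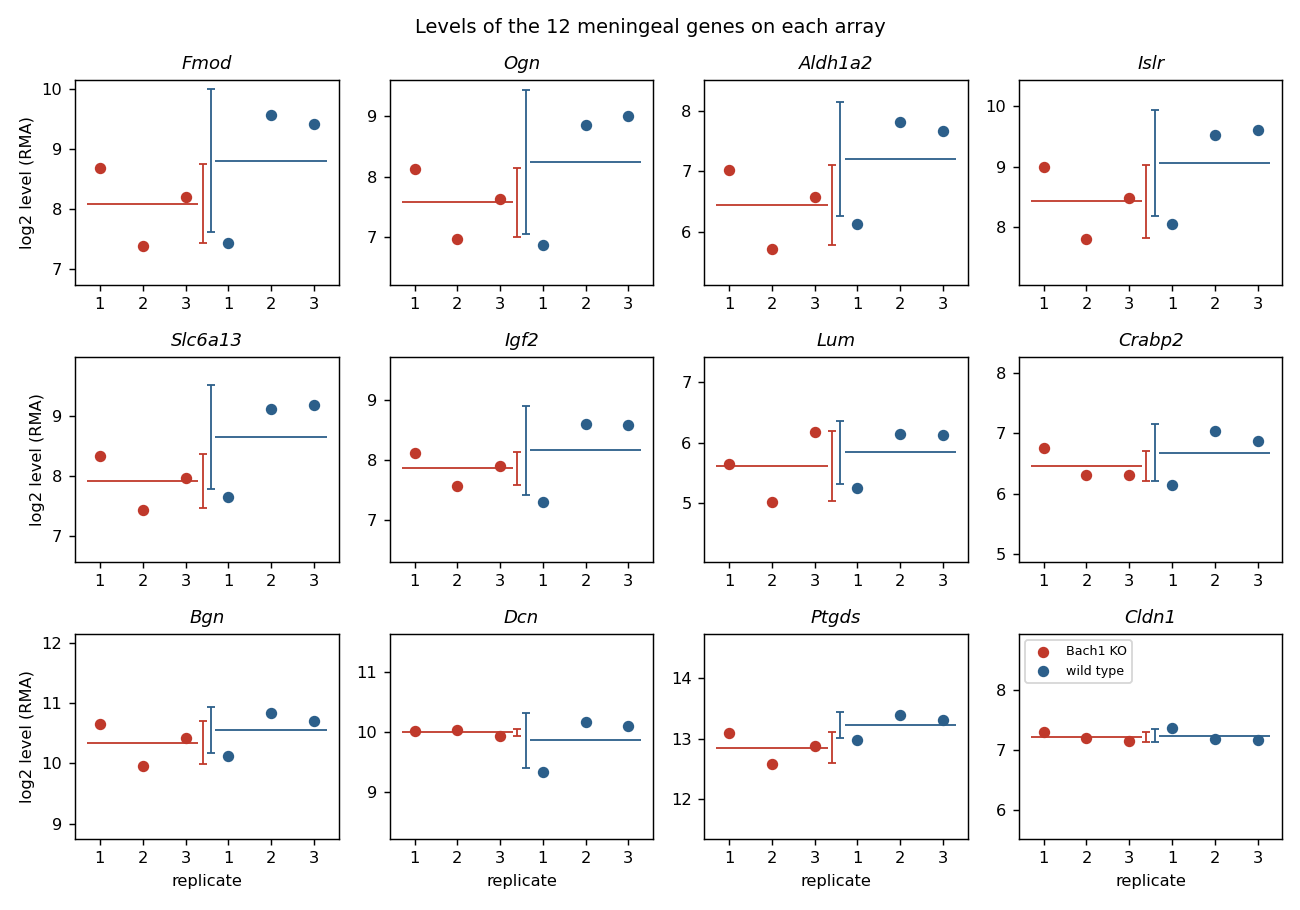
Log2 level (vertical axis) of the 12 meningeal genes on each array, Bach1 KO in red and wild type in blue, with replicate numbers on the horizontal axis. Horizontal lines are group means and error bars are SDs (n = 3). For Fmod, Ogn, Aldh1a2, Islr, Slc6a13 and Igf2 both genotypes hold low and higher arrays, while Cldn1 is level.

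Against the whole genome the spread of these genes was wide. The range over the 6 arrays lay above the 90th percentile of all genes, a share of 10% by construction, for 11 of 12 meningeal genes. The same held for 2 of 44 collagens, Col6a1 and Col9a2, against 9.8% of genes of like level, those with a mean level in the range of the collagens. The median range was 1.23 for the meningeal genes, 0.41 for the collagens and 0.37 for all genes. Fmod, Ogn, Aldh1a2, Islr and Slc6a13 each lay above the 99.7th percentile, while Cldn1 was at the 18.4th.

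**Figure D2:**
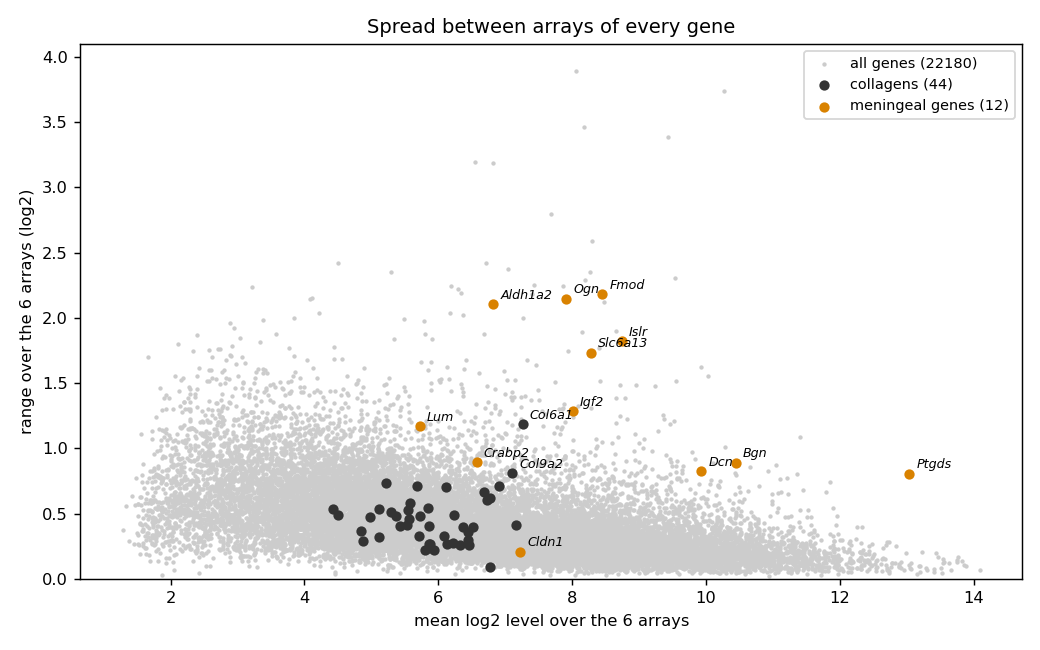
Range over the 6 arrays (log2, vertical axis) against mean log2 level (horizontal axis) for 22180 genes in grey, the 44 collagens in black and the 12 meningeal genes in orange. Fmod, Ogn, Aldh1a2, Islr and Slc6a13 lie above most of the cloud, while Cldn1 and most collagens lie within it.

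Other genes of the meninges, which the choice of members did not use, moved with them in part. They too were listed with earlier results of these data known. A list of 20 further meningeal markers had scores, the mean log2 level minus the wild-type mean, of -0.11, -0.63 and -0.37 on Bach1 KO replicates 1, 2 and 3 and of -0.57, 0.26 and 0.31 on the wild-type replicates. The scores of the 12 meningeal genes were -0.065, -0.80 and -0.32, and -0.74, 0.39 and 0.35. Of the 20 further markers, 9 had Bach1 KO replicate 2 and wild-type replicate 1 as their lowest arrays (45%), against 7.39% of all genes. A range above the 90th percentile of genes, a share of 10% by construction, was found for 13 of them. Osr1, a transcription factor of fibroblasts, was at 8.65, 7.68 and 7.69 on the Bach1 KO arrays and at 7.64, 9.76 and 9.46 on the wild-type arrays. The sulfate transporter gene Slc13a4 was at 8.53, 7.08 and 7.99 against 7.30, 9.43 and 9.31. Both had the same lowest pair and the same highest pair of arrays as Fmod and Ogn. For Osr1, however, Bach1 KO replicate 3 was nearly as low as the lowest pair. Foxc1, a transcription factor of the meninges, spread less, from 6.68 to 7.27. Twist1, a transcription factor of mesenchymal cells, was level, between 6.03 and 6.17. In the Bach1 KO group the mean was higher for 1 of the 20 markers, Nnmt, and lower for 19 (95%), against 53.1% of all genes. At an unadjusted p under 0.05 in limma 1 was lower, Dpp4 (5%), against 2.71% of all genes, and 0 passed after adjustment. Dpp4 had all Bach1 KO values below all wild-type values, with Bach1 KO replicates 2 and 3 lowest. This held for 1 of the 20 (5%), against 7.94% of all genes. Nnmt had all Bach1 KO values above all wild-type values, also 1 of the 20 (5%), against 6.36% of all genes. Neither share exceeded that of all genes. The mean level of each of the 20 was above 5.07.

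Most collagens did not follow the meningeal genes. The fibril chains Col1a1 and Col1a2, which together make type I collagen, shared their lowest pair of arrays, with a smaller spread. Col1a2 was at 7.05, 6.56 and 6.95 on Bach1 KO replicates 1, 2 and 3 and at 6.50, 7.19 and 7.21 on wild-type replicates 1, 2 and 3. A dimmer Col1a2 probe set was lowest on wild-type replicate 1 (3.97) but not low on Bach1 KO replicate 2 (4.34). Col1a1 was at 6.88, 6.37 and 6.79 against 6.61, 6.97 and 6.77, so wild-type replicate 3 was not among its highest arrays. For both, Bach1 KO replicate 2 and wild-type replicate 1 were the lowest arrays, as they were for Col11a1. These are 3 of the 44 collagens (6.82%), against 6.42% of the 9241 genes of like level, a share near the background. Wild-type replicates 2 and 3 were the highest arrays for 2 of 44 collagens, against 9.23% of genes of like level. Col3a1, the chain of type III collagen, was lowest on wild-type replicate 1 (5.96) and between 6.17 and 6.45 on the other arrays. The score of Col1a1, Col1a2 and Col3a1 was -0.28 on Bach1 KO replicate 2 and -0.29 on wild-type replicate 1, and between -0.013 and 0.15 on the other arrays. Among the remaining 8 fibrillar chains, which include the nucleating chains of types V and XI and the cartilage chain Col2a1, the log2 fold changes ran from -0.031 for Col5a1 to 0.34 for Col5a3. A dimmer Col5a1 probe set went the other way, at 5.42, 5.53 and 5.41 on the Bach1 KO arrays and at 5.22, 5.23 and 5.23 on the wild-type arrays, without overlap (log2 fold change 0.23; limma, adjusted p = 0.557). Col5a3 was at 6.36, 6.41 and 6.09 on the Bach1 KO arrays and at 6.12, 5.70 and 6.03 on the wild-type arrays, and without wild-type replicate 2 its value was 0.21.

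Type VI collagen, a beaded filament found around vessels and fibroblasts, had the collagen with the widest spread. Col6a1 was at 7.14, 7.84 and 7.23 on the Bach1 KO arrays and at 6.66, 7.30 and 7.38 on the wild-type arrays. It was low on wild-type replicate 1, like the meningeal genes, but highest on Bach1 KO replicate 2, where they were low. Col6a2 had the same highest and lowest array, at 7.01 and 6.40, and a second, dimmer Col6a1 probe set did too, at 5.20 and 4.41. The probe sets of Col6a1 differed in the sign of the genotype difference, with log2 fold changes of 0.29 and -0.076. The value of 0.29 was 0.070 without Bach1 KO replicate 2 and 0.062 without wild-type replicate 1. Col6a3 ran from 5.33 to 5.74 with wild-type replicate 2 lowest. Wild-type replicate 2 was the lowest array for 13 of the 44 collagens, against 22.4% of genes of like level and 17% of all genes. Bach1 KO replicate 2 was the highest array for 15 of the 44 collagens (34.1%), against 21.9% of genes of like level, 17% of all genes and 0 of the 12 meningeal genes. The forebrain neuron gene Neurod2, singled out after its values were seen, was also highest on Bach1 KO replicate 2 (8.76) and lowest on wild-type replicate 1 (6.51). The array median over all probe sets was also highest on Bach1 KO replicate 2 (5.69) and lowest on wild-type replicate 2 (5.58). The part of Neurod2 or of these medians in the collagen values was not tested.

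**Figure D3:**
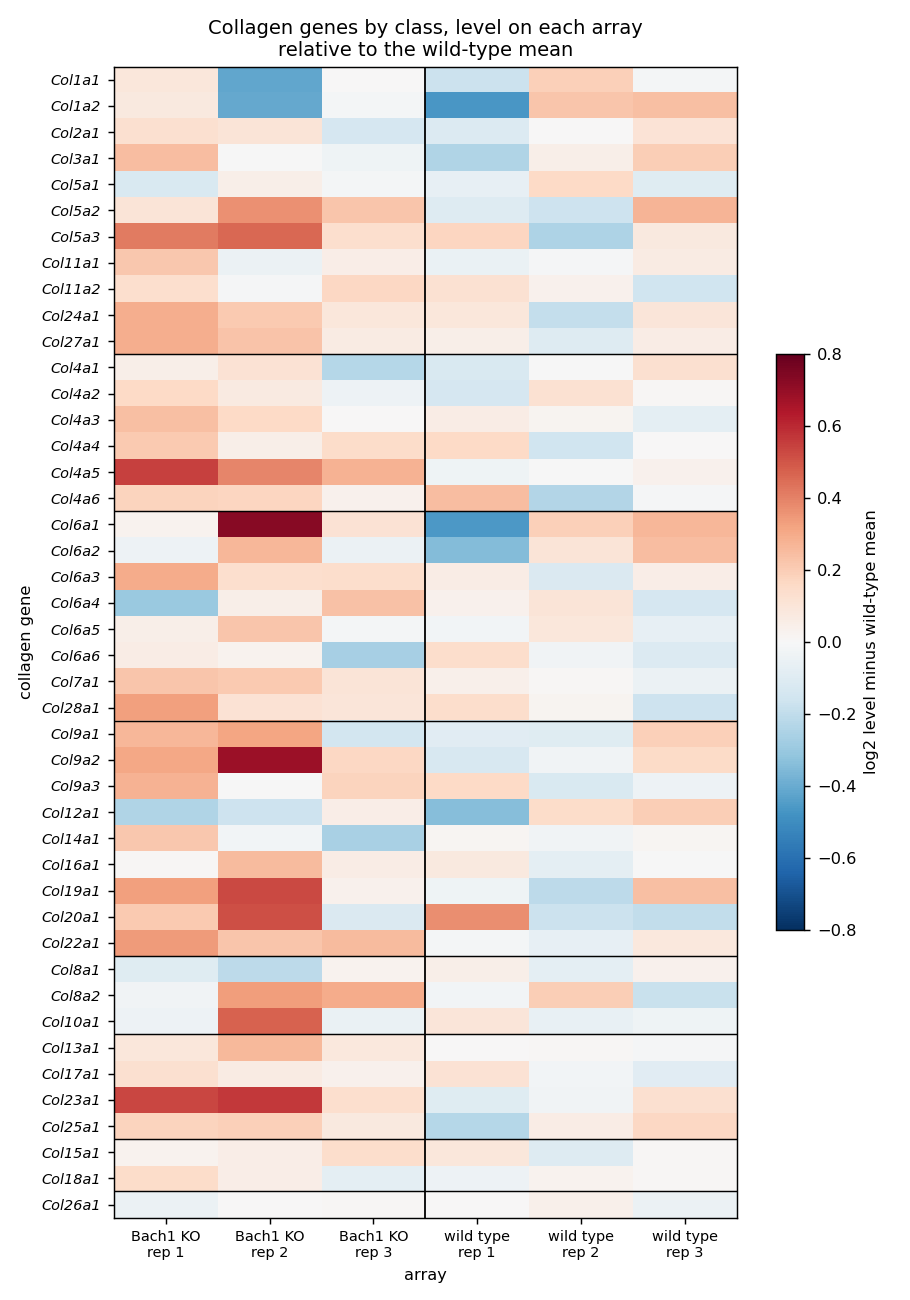
Level of each of the 44 collagen genes (rows) on the 6 arrays (columns), as log2 level minus the wild-type mean, red above and blue below. Black lines separate the classes, from the top fibrillar, collagen IV, collagens VI, VII and XXVIII, fibril-associated, short-chain, transmembrane, multiplexin and Col26a1. Col1a1 and Col1a2 are low on Bach1 KO replicate 2 and wild-type replicate 1, and Col6a1 is high on Bach1 KO replicate 2.

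The basement membrane chains Col4a1 and Col4a2, made by endothelial and mural cells, were among the steadier members. Col4a1 was at 6.49, 6.56 and 6.22 on the Bach1 KO arrays and at 6.33, 6.44 and 6.57 on the wild-type arrays. Col4a2, whose window overlaps that of Col4a1, was at 6.57, 6.49 and 6.37 against 6.28, 6.54 and 6.43. Their log2 fold changes were -0.024 and 0.063, with 95% intervals of -0.32 to 0.28 and -0.19 to 0.31. The head-to-head neighbour chains Col4a5 and Col4a6 had values of 0.41 and 0.13. Of all members, Col26a1 varied least, between 6.73 and 6.82.

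Of the 9 fibril-associated chains, which coat fibrils rather than build them, 7 had higher means on the Bach1 KO arrays and 5 were highest on Bach1 KO replicate 2. Among them Col19a1 was at 5.40, 5.602 and 5.11 on the Bach1 KO arrays and at 5.04, 4.87 and 5.32 on the wild-type arrays, with overlapping groups. Col20a1 was at 5.80, 6.10 and 5.47 against 5.96, 5.41 and 5.39, so wild-type replicate 1 stood with the Bach1 KO arrays. Col12a1, the chain with the lowest log2 fold change of the collagens, -0.12, was at 5.66, 5.74 and 5.96 against 5.56, 6.05 and 6.10. All 4 transmembrane chains had higher means on the Bach1 KO arrays. One of them, Col25a1, is made by neurons and sheds a fragment found in amyloid plaques. Col25a1 was at 7.27, 7.28 and 7.17 against 6.87, 7.15 and 7.26, so only wild-type replicate 1 was low. The multiplexins Col15a1 and Col18a1, basement membrane collagens of vessels that carry sugar chains, differed by 0.072 and 0.042. The short-chain collagens Col8a1, Col8a2 and Col10a1, which form hexagonal networks, had log2 fold changes of -0.092, 0.20 and 0.13, with overlapping groups.

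Between the genotypes, 0 of the 56 genes passed limma at an adjusted p under 0.05, the threshold that 0.00726% of all probe sets passed. The smallest adjusted p of a member was 0.512. At an unadjusted p under 0.05, 4 collagens had higher means on the Bach1 KO arrays (9.09%), against 5.71% of genes of like level and 3.8% of all genes, and 0 members had lower ones, against 3.19% and 2.71%. The smallest of the 4 belonged to Col4a5, a chain of specialised basement membranes. Its levels were 5.92, 5.76 and 5.65 on the Bach1 KO arrays and 5.34, 5.37 and 5.41 on the wild-type arrays. The groups did not overlap, and Bach1 KO exceeded wild type by 0.41 on the log2 scale, or 1.32-fold (SE 0.095; limma, adjusted p = 0.512), with a 95% interval from 0.17 to 0.64. Col22a1, a fibril-associated chain known from tissue junctions, was at 5.63, 5.51 and 5.55 against 5.28, 5.22 and 5.38, with a log2 fold change of 0.27 (limma, adjusted p = 0.54). Col23a1, a transmembrane collagen, was at 7.01, 7.04 and 6.61 against 6.38, 6.45 and 6.60, so that the lowest Bach1 KO array barely cleared the highest wild-type array. Its log2 fold change was 0.41 (95% interval 0.069 to 0.76; limma, adjusted p = 0.564). Col9a2, a fibril-associated chain of type IX collagen, was at 7.22, 7.59 and 7.07 against 6.78, 6.88 and 7.06, with a log2 fold change of 0.38 (limma, adjusted p = 0.602), which was 0.23 without Bach1 KO replicate 2. None of these 4 passed the test over all probe sets. Their number depended on the arrays used: 7 collagens reached this unadjusted p without Bach1 KO replicate 3, against 7.34% of all genes, and 2 without Bach1 KO replicate 2, against 4.63%. Without Bach1 KO replicate 1 or wild-type replicate 2 it was 1 collagen, against 5.23% and 3.72% of all genes. With the replicate number as a block it was 2, and the share of all genes was not counted in that fit.

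As a class, the collagens had slightly higher means on the Bach1 KO arrays and the meningeal genes lower ones. Of the 44 collagens 34 were higher (77.3%), against 54.8% of genes of like level and 46.9% of all genes, and 10 were lower, against 45.2% and 53.1%. All Bach1 KO values lay above all wild-type values for 8 of 44 (18.2%), against 9% of genes of like level and 6.36% of all genes. The reverse held for 0, against 6.43% and 7.94%. The 8 were Col4a5, Col22a1, Col23a1, Col9a2, Col7a1, Col6a3, Col27a1 and Col13a1, the last a transmembrane chain and Col7a1 the chain of anchoring fibrils. The median log2 fold change of the collagens was 0.13, beside 0.020 for genes of like level and -0.0098 for all genes, and it was 0.070 with renewed quantile normalization and to 0.081 with median centring of the arrays. The collagen scores were 0.15, 0.17 and 0.045 on the Bach1 KO arrays and -0.024, -0.013 and 0.037 on the wild-type arrays. Genes of like level had scores of 0.042, 0.031 and 0.0010 on the same Bach1 KO arrays. Bach1 KO replicate 3 thus lay close to wild-type replicate 3. Without Bach1 KO replicate 2 the median of the collagens was 0.085.

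Of the 12 meningeal genes 11 had lower means on the Bach1 KO arrays (91.7%), against 53.1% of all genes, with a median log2 fold change of -0.34, but the groups overlapped for all 12. The largest differences were -0.77 for Aldh1a2 (95% interval -2.07 to 0.54; limma, adjusted p = 0.732) and -0.73 for Slc6a13 (95% interval -1.85 to 0.38; limma, adjusted p = 0.706). Fmod had a value of -0.71 (95% interval -2.25 to 0.82) and Dcn, the gene with a higher mean, one of 0.13 (95% interval -0.42 to 0.68). The interval of each of these genes reached from below to above 0. The narrowest intervals were those of Cldn1, from -0.25 to 0.20, and Ptgds, from -0.79 to 0.035.

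These values turned on single arrays. Without wild-type replicate 1 the median of the meningeal genes was -0.62 and 8 of 12 reached an unadjusted p under 0.05, against 7.39% of all genes in the same fit. That array was among the lowest for most of these genes. Leaving it out narrows their wild-type spread, so this share is not a fair background for the count. Without wild-type replicate 2 the median was -0.19, without wild-type replicate 3 -0.21 and without Bach1 KO replicate 2 -0.20. In each of these fits 0 meningeal genes reached that p, against 3.72%, 4.91% and 4.63% of all genes. With both low arrays left out, a choice made after the data were seen, the Bach1 KO values lay below both wild-type values for 10 of 12 genes, against 20.5% of all genes, and the median was -0.50. An unadjusted p under 0.05 was reached by 7 of 12, against 5.8% of all genes. Both arrays were left out because they were low for most of these genes. That choice narrows the spread of these genes within each genotype, so neither share is a fair background for the counts. Fmod then had a log2 fold change of -1.04 and Ogn one of -1.06 (limma, adjusted p = 0.645 for both). With any of these arrays left out, 0 members passed the test over all probe sets. The 20 further meningeal markers were not counted in these fits, and their part in this result was not tested.

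**Figure D4:**
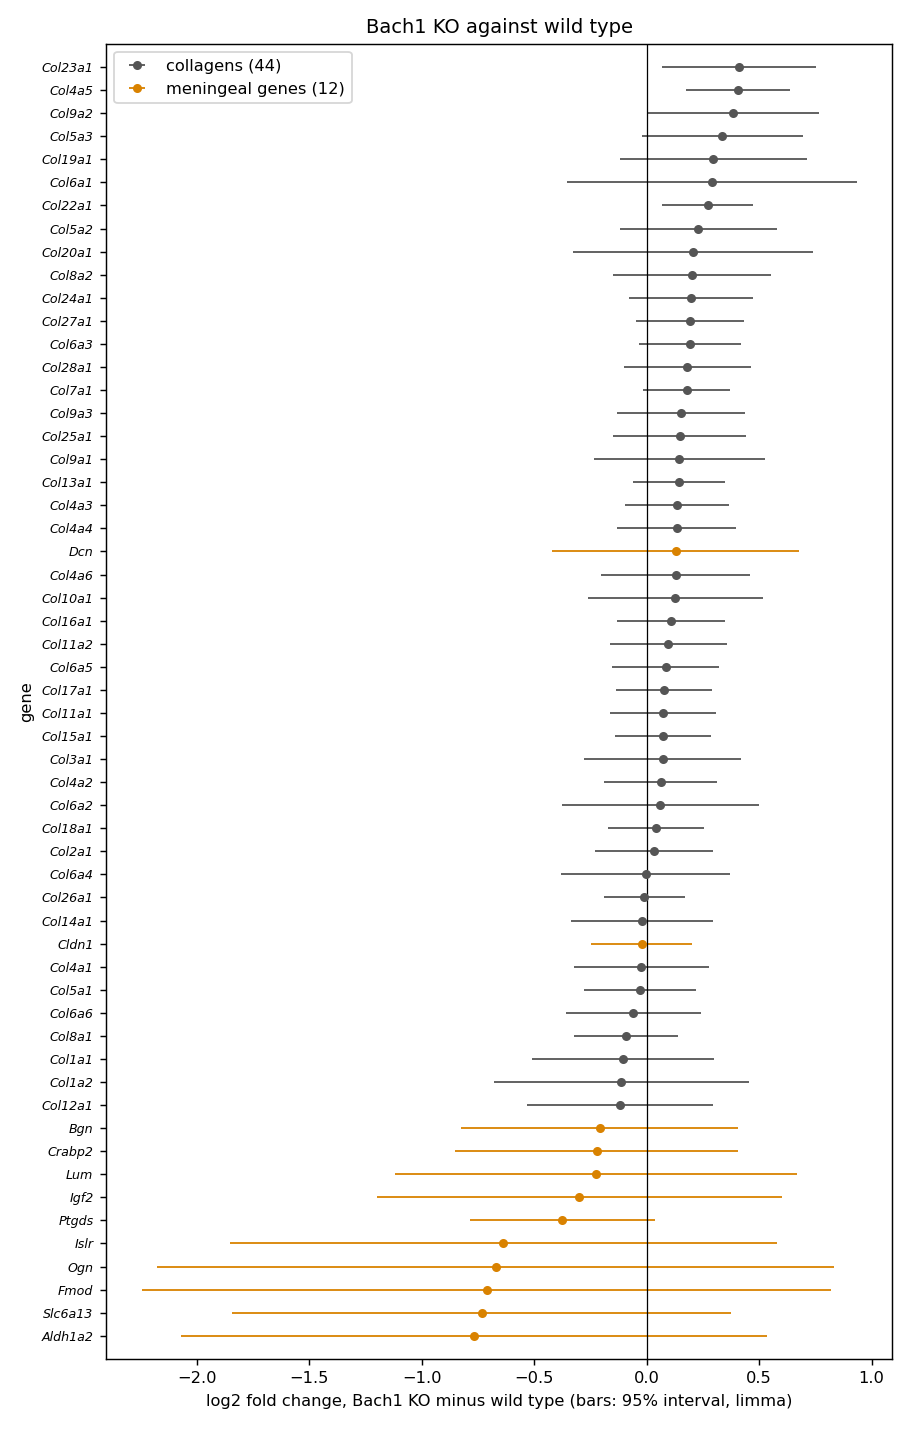
Log2 fold change of Bach1 KO minus wild type (horizontal axis) for the 56 genes, ordered by value, with 95% intervals from limma as bars, collagens in grey and meningeal genes in orange. Apart from Dcn and Cldn1, the meningeal genes have the lowest values, and those of Fmod, Ogn, Aldh1a2, Islr and Slc6a13 have the widest intervals. The intervals of Col4a5, Col23a1, Col22a1 and Col9a2 lie above 0, and 0 genes passed the adjusted test.

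The genes that make, cut and bind collagen were compared next. Of 25 measured enzymes and chaperones of collagen synthesis, 7 had higher and 18 (72%) lower means in the Bach1 KO group (median difference -0.070, log2). Lower means were found for 53.1% of all genes. In limma 0 of the 25 passed after adjustment and 3 reached an unadjusted p under 0.05. These were Pcolce2 with a higher mean, against 3.8% of all genes, and Loxl1 and Crtap with lower means, against 2.71%. Loxl1, which cross-links elastic fibres, was at 6.48, 6.47 and 6.34 on the Bach1 KO arrays and at 6.65, 6.95 and 6.89 on the wild-type arrays (log2 fold change -0.40; limma, adjusted p = 0.516). Pcolce2, which enhances the trimming of procollagen, was at 8.56, 8.49 and 8.72 against 8.32, 8.26 and 8.23 (log2 fold change 0.32; limma, adjusted p = 0.53). Crtap, part of the complex that hydroxylates collagen prolines, had a log2 fold change of -0.33 (limma, adjusted p = 0.564). For each of these 3 genes the groups did not overlap, as for 6.36% of all genes with higher and 7.94% with lower Bach1 KO values. P3h2, a prolyl hydroxylase gene singled out after its values were seen, also had all Bach1 KO values below all wild-type values. Among 18 matrix proteases, inhibitors and collagen receptors, 5 were higher and 13 (72.2%) lower, against 53.1% of all genes. Of these 18, 0 passed limma either after adjustment or at an unadjusted p under 0.05. All Bach1 KO values lay below all wild-type values for 3 of them, Mmp13 and Mmp14 included, against 7.94% of all genes. The reverse held for 0, against 6.36%. The collagen receptor gene Ddr2 had Bach1 KO replicate 2 (6.04) and wild-type replicate 1 (6.16) as its lowest arrays and reached 7.38 on wild-type replicate 2. Of 13 laminins and partners in basement membranes, 2 were higher and 11 (84.6%) lower, against 53.1% of all genes, and 0 passed by either measure. The same 2 arrays were lowest for 8 of the 13 (61.5%), against 7.39% of all genes. Fn1, the fibronectin gene, was one of them, at 8.98 and 8.91 on these arrays and between 9.20 and 10.10 on the others.

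Markers of other cells that could carry collagen shared the order of the meningeal genes in part or not at all, and 0 of them passed limma after adjustment. Mural cell markers, 11 in number, came closest. Bach1 KO replicate 2 and wild-type replicate 1 were the lowest arrays for 5 of them (45.5%), against 7.39% of all genes. Wild-type replicates 2 and 3 were the highest arrays for 2 of the 11 (18.2%), against 10.6% of all genes. Abcc9 and Kcnj8 were instead highest on wild-type replicate 1. The scores of the list were 0.020, -0.24 and -0.058 on the Bach1 KO arrays and -0.13, 0.13 and 0.0053 on the wild-type arrays. Endothelial markers were low on Bach1 KO replicate 2 (-0.28) and not on wild-type replicate 1 (-0.0038). Their other scores were -0.073 and -0.069 on Bach1 KO replicates 1 and 3, and 0.024 and -0.020 on wild-type replicates 2 and 3. Like the meningeal genes, most of them, 11 of 12 (91.7%), had lower means on the Bach1 KO arrays, against 53.1% of all genes. The score of the choroid plexus markers was higher on Bach1 KO replicate 2 (0.21) and wild-type replicate 2 (0.25) than on the other arrays. The highest score of those was 0.0037. Ttr, the transthyretin gene of the choroid plexus, was at 9.53, 10.89 and 9.59 on the Bach1 KO arrays and at 8.69, 9.98 and 8.58 on the wild-type arrays. The wild-type mean of Ttr was 9.09, and most of the list's score on Bach1 KO replicate 2 came from this gene. Bach1 KO replicate 2 was the highest array for 3 of the 9 markers, so its score does not describe the whole list. Of these 9 choroid plexus markers, 0 had Bach1 KO replicate 2 and wild-type replicate 1 as their lowest arrays. Bone and cartilage markers mark cells rich in several collagens. Of 12 such markers 8 had higher (66.7%) and 4 lower means on the Bach1 KO arrays, against 46.9% and 53.1% of all genes. Of the 12, 6 were dimmer than 5.07. The list had scores of 0.12 on each Bach1 KO array and between -0.0067 and 0.010 on the wild-type arrays. All Bach1 KO values lay above all wild-type values for 3 (25%), the dim Matn1 (mean 4.79) included, against 6.36% of all genes. The reverse held for 1, Sp7, against 7.94%. Skeletal muscle markers, 4 of 8 dimmer than 5.07, ran from -0.079 to 0.20. Pituitary scores ran from -0.26 to 0.17, ependymal scores from -0.16 to 0.15 and blood scores from -0.044 to 0.30. Dimmer than 5.07 were 4 of 8 pituitary, 2 of 9 ependymal and 4 of the 5 measured blood markers. Astrocyte scores stayed between -0.048 and 0.048, microglia and macrophage scores between -0.091 and 0.083, and oligodendrocyte scores between -0.19 and 0.098. The dopaminergic scores ran from -0.10 to 0.30. Higher means on the Bach1 KO arrays were found for 10 of those 12 markers (83.3%), against 46.9% of all genes. The part of any of these lists in the collagen values was not tested.

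**Figure D5:**
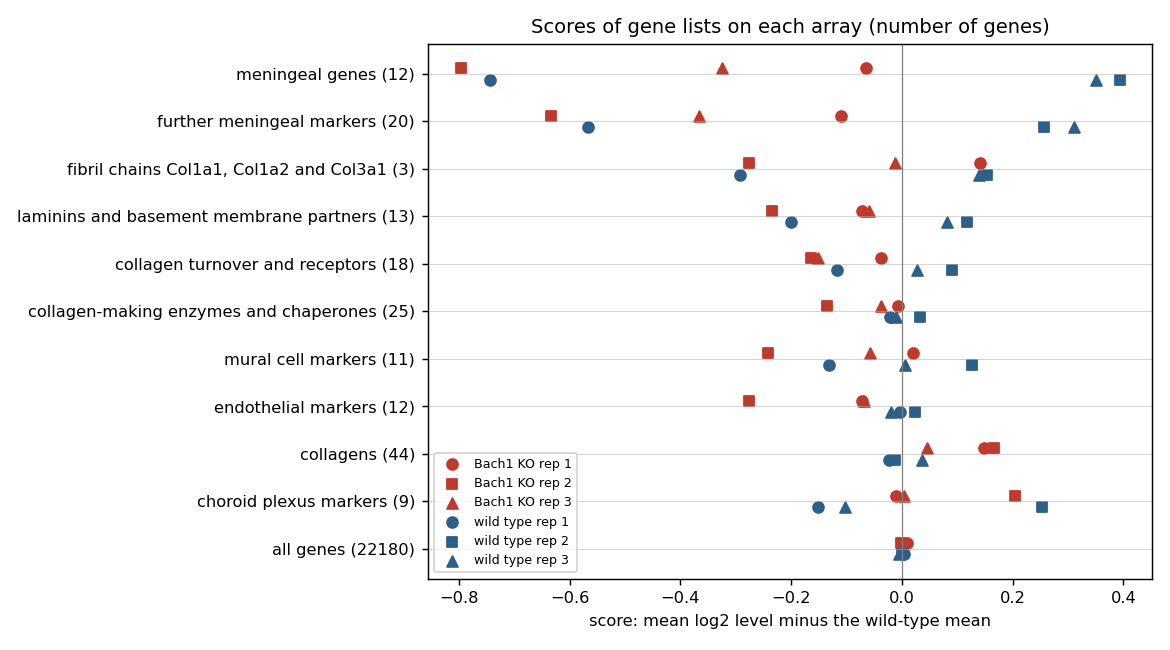
Score of gene lists on each array, the mean over the list of log2 level minus the wild-type mean (horizontal axis), with Bach1 KO in red above and wild type in blue below each line and 1 symbol for each replicate number. The meningeal genes and the further meningeal markers span from -0.80 to 0.39 at most, with Bach1 KO replicate 2 and wild-type replicate 1 low and wild-type replicates 2 and 3 high, while the 44 collagens span from -0.024 to 0.17.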

How the data were processed

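Per the labels' protocols, 2 µg of total RNA from each ventral midbrain sample went to biotin labelling and an Affymetrix array. The deposited values are log2 levels of probe sets, and the submitters' processing notes name RMA. RMA makes the arrays' distributions alike and compresses differences of dim probe sets. There were 0 further sample columns, and the sources used here do not give its version. Gene names came from the platform annotation, updated through Entrez identifiers to RefSeq (GRCm38.p6) for 23328 probe sets. Of 41345 probe sets, 23521 had 1 gene, 1814 several and 16010 none.

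Bach1 KO and wild type (3 arrays each) were compared for every probe set with limma 3.58.1 in R 4.3.3 (lmFit, eBayes), and p-values were adjusted with Benjamini-Hochberg over all probe sets. The test was tried on simulated arrays in which 100 probe sets were shifted by 1 and 100 by 2 on the log2 scale. At an adjusted p under 0.05 it called 51 and 89 of them, with 9 false calls among 41345 probe sets. Differences of these sizes can thus be missed. A range is the highest minus the lowest array. Genes of like level are those with a mean from 4.42 to 7.26, the range of the collagens. The 40th percentile of probe set means marks dim probe sets. Alternatives were other variance priors, filters, scalings, probe set choices, a replicate block and single arrays left out.

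The members, lists and tests were chosen with earlier results of these data known. Named members are the 12 meningeal genes, 8 main chains, the 8 other collagens with the widest range among those above the 40th percentile, and the 8 members with the smallest p. Of other lists up to 3 genes with the smallest p may be named, and the further meningeal genes Osr1, Slc13a4, Foxc1 and Twist1, the second probe sets, Th, Slc6a3, Fn1, Ttr and Neurod2 were singled out, as were collagens named for their class, overlap or extreme values, after their values were seen. Arrays with the same replicate number did not deviate together, with correlations of 0.086, -0.033 and 0.039. The number of arrays limits the precision.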

Additional observations from a re-analysis of the deposited data

How the results depend on the processing

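Over 13 alternatives, 0 of the 56 genes passed the adjusted threshold, and the smallest adjusted p of the 30 named members was 0.426. With any single array left out, the members at an unadjusted p under 0.05 numbered from 1 to 11, collagens from 1 to 7 and meningeal genes from 0 to 8, and the meningeal genes with a higher mean on the Bach1 KO arrays numbered 1 to 2. With the replicate block 2 members, both collagens, reached that p against 4 without it, and the block changed no call. With trend and robust variances 1 meningeal gene did. The shares of all genes were not counted in the block and trend fits. With Bach1 KO replicate 2 and wild-type replicate 1 both left out, added after the data were seen, 9 members did, 2 collagens and 7 meningeal genes. Renewed quantile normalization gave 2 meningeal genes with a higher mean, with Cldn1 at 0.014. Median centring lowered the collagen score of Bach1 KO replicate 2 to 0.085. With both arrays left out, the log2 fold change changed sign for Cldn1 (0.050), Col3a1 (-0.013), Col4a2 (-0.0093), Col6a1 (-0.16), Col6a2 (-0.22) and Dcn (-0.15). With single arrays left out it ran from -0.065 to 0.038 for Cldn1, -0.050 to 0.17 for Col3a1, -0.0054 to 0.12 for Col4a2, -0.11 to 0.18 for Col6a2, -0.14 to 0.28 for Dcn, -0.20 to 0.049 for Col1a1, -0.35 to 0.034 for Col1a2, -0.093 to 0.080 for Col4a1, -0.13 to 0.14 for Col6a4 and -0.52 to 0.072 for Lum. The cause of these changes was not tested. Leaving out dim probe sets removes 5 collagens.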
